A study of Zea mays with 64 samples.

Results

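Family NE74 is a maize cross in which 8 kernels were each sampled in 2 tissues, a chip of endosperm and, after the chipped kernel was sown, the first seedling leaf. Its 16 progeny libraries were taken by the family and plant numbers in the sample titles and paired by plant, and the endosperm library of the father, plant D67-35, served as the reference, which makes 17 of the 64 libraries of the series. Insertion sites of Mu transposons were read out with MuSeq2, which amplifies and sequences the DNA that flanks Mu ends in sheared, adapter-ligated genomic fragments. Both parents were W22, an inbred line. The ear parent was Mu-inactive, the pollen parent was Mu-active, and D67-35 had itself come from such a cross. Leaves were harvested 10 to 13 days after sowing. The leaf DNA came from a column kit and the endosperm DNA from a modified CTAB procedure, so tissue and extraction method cannot be told apart in any leaf against endosperm comparison.

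Mu elements are DNA transposons of maize that, while active, place copies at new positions and duplicate a short stretch of target DNA at each one, so that an insertion appears as a site 9 bp wide. Sister sperm cells of a pollen grain fertilise the egg and the central cell. Leaf and endosperm of a kernel therefore start from the same paternal haplotypes, while the central cell brings more copies of the maternal genome than the egg does. An element that moves before those sperm cells form can reach both tissues, and one that moves later in development reaches some cells of the tissue in which it moved.

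Total counts were 225018 to 555843 in the 8 leaf libraries, 7207 to 85100 in the 8 endosperm libraries and 606214 in the father library. Presence required at least 10 reads and at least 100 CPM (the count divided by the library's summed counts, times 1000000). Plant 5 had the shallowest endosperm library, where 10 reads equal 1388 CPM, and plant 4 the deepest, where they equal 118 CPM. A count of 0 allows a level of up to 3 counts, which was 5.40 to 13.3 CPM in leaf and 35.3 to 416 CPM in endosperm. These limits cover counting error only, because amplified reads are not independent molecules. The endosperm library of plant 7 held insertions listed for family NE71, so the tests that use it are also given over the other 7 plants. Positions are those of the deposited tables, whose genome build is not given in the sources used here.

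The authors' deposited list gave 100 insertions for D67-35. Of these, 29 carried a call for the Mu-inactive parent too and are called both-parent insertions here. The calls do not show whether each kernel also received them from the father. The other 71 had no call for the Mu-inactive parent, which has no library in the series, and were taken as paternal. One of them, chr9:11958559-11958567, was present in every leaf library of the series and was set aside, which left 70 insertions. These are called segregating here, although 3 of them were carried by 0 plants of the family. Of the 70, 66 were exactly 9 bp wide, 42 were listed for no other father and 28 were shared with at least 1 other father.

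Leaf and endosperm of each kernel carried the same paternal insertions. Over 70 insertions in 8 plants, the presence calls of the 2 tissues differed at 0 of 560 combinations. When each endosperm library was instead set against the leaf libraries of the other 7 plants, the calls differed at 22 to 51 of the 70 insertions, so the genotypes matched the plant numbers in the titles. The separation was wide in leaf. Carried insertions had at least 388 reads in leaf and at least 10 in endosperm, and the 232 combinations without the insertion had at most 48 reads in leaf and at most 2 in endosperm. The 10 reads, in plant 5 at chr3:124618914-124618922, equal the presence minimum, so they do not measure the separation in endosperm. Of those 232, 205 had 0 reads in leaf and 216 had 0 reads in endosperm.

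**Figure D1:**
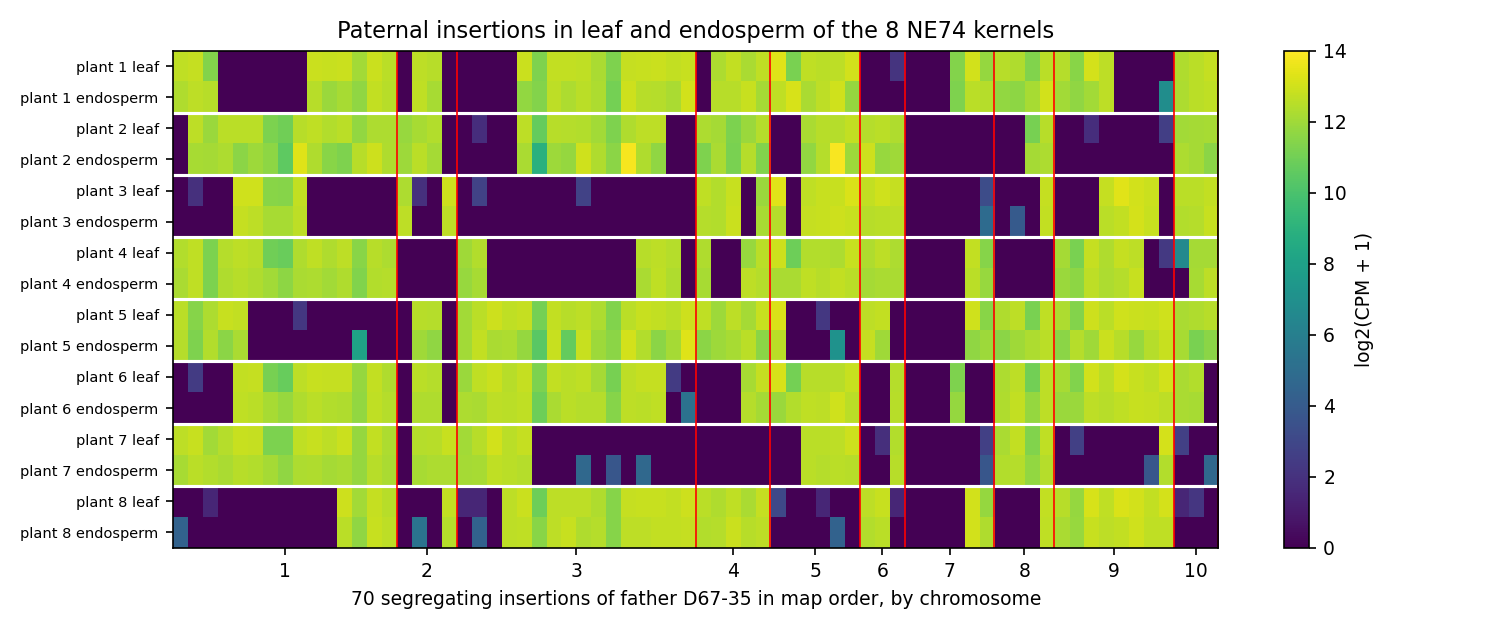
Each column is 1 of the 70 segregating paternal insertions in map order, with red lines between chromosomes 1 to 10, and each row is 1 library of the 8 plants, coloured by log2(CPM + 1). Bright and dark blocks match between leaf and endosperm of a plant at all 560 combinations and change at 59 places along the chromosomes.

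The 8 plants carried 47, 44, 27, 42, 48, 51, 33 and 36 of the 70 insertions, in the order of plants 1 to 8. Pooled over plants this was 328 of 560, or 58.6% (Wilson 95% confidence interval 54.4 to 62.6%). Linked insertions are inherited together, so the interval is narrower than the inheritance of whole segments allows, and no test against equal inheritance was made. Plant 3, with 38.6%, and plant 6, with 72.9%, were the extremes. By insertion, 32 of the 70 were carried by 5 plants, 15 by 6, 12 by 4, and 2 by 7 plants, and 0 were carried by all 8.

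On chromosome 7, 3 neighbouring insertions were carried by 0 of 8 plants. They lay at chr7:25221853-25221861, chr7:44742681-44742689 and chr7:141317990-141317998. The father library held 5134, 5445 and 2938 reads at them, and every leaf and endosperm library of the family held 0. Each of the 3 was also listed for 2 other fathers.

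Paternal haplotypes were read as runs of present and absent insertions along a chromosome, and a change between neighbouring insertions was counted as a switch. The 8 plants had 59 switches in all, with 8, 6, 11, 8, 6, 9, 5 and 6 in plants 1 to 8 (7.38 ± 2.00 per plant, SD, n = 8). Leaf and endosperm gave the same switches, since their calls were the same. Of the 80 combinations of plant and chromosome, 23 carried every paternal insertion of the chromosome, 12 carried none and 45 were mixed. There were 0 switches in 35, 1 in 32, 2 in 12, and 3 in 1.

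Chromosomes 1 and 3 were the most densely marked. Chromosome 1 had 15 insertions between positions 18661154 and 270591484. Plants 4 and 7 carried all 15, and the other 6 plants were mixed, with 8 switches. The narrowest interval with a switch in the family lay here, in plant 8, where chr1:246411645-246411653 was absent and chr1:247189133-247189141 was present, 0.777 Mb away. Chromosome 3 had 16 insertions between 973321 and 214264474. Plant 5 carried all 16, plant 3 carried none, and the 9 switches fell in the other 6 plants. Plant 4 had 3 of them, the most on any chromosome of any plant: chr3:1303746-1303754 was its last carried insertion on the left, the run resumed at chr3:174281057-174281065 and ended again between 204385901 and 214264467.

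Chromosome 2 had only 4 insertions, from 3615026 to 243390045, but 11 switches, the highest number of any chromosome. All 11 fell in its wide gaps, of 198.7 and 39.4 Mb, while chr2:202270575-202270583 and chr2:204000923-204000931, 1.73 Mb apart, had the same state in 8 of 8 plants. Plants 1, 3, 5 and 6 changed state in both gaps. Chromosome 4 had 5 insertions between 41396506 and 246324466 and 6 switches; plants 2, 5 and 8 carried all 5 and plant 7 none. Chromosome 5 had 6 insertions between 10940014 and 129809104 and 5 switches, with the whole set in plants 1, 4 and 6 and none of it in plant 8. Chromosome 6 had 3 insertions between 37280408 and 145719937, and its 4 switches all fell in the 108.1 Mb gap before the last.

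On chromosome 7, 6 insertions spanned 25221853 to 176964054, no plant carried all of them, plants 2, 3 and 7 carried none, and the 6 switches all lay to the right of the untransmitted insertions. Chromosome 8 had 4 insertions between 3074764 and 147775124 and 3 switches. Plants 1, 5, 6 and 7 carried all 4. Chromosome 9 had 8 insertions between 20420229 and 161875128 and 5 switches, with all 8 insertions in plants 5, 6 and 8 and none in plant 2. Chromosome 10 had 3 insertions between 83075947 and 134200419, which plants 1, 2, 3 and 5 carried in full and plants 7 and 8 lacked. Its 2 switches were in plants 4 and 6.

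Switches were rarer between close neighbours. Between insertions less than 1 Mb apart, 1 of 64 plant intervals held a switch (1.56%). The share was 8 of 160 (5.00%) at 1 to 10 Mb, 28 of 160 (17.5%) at 10 to 50 Mb and 22 of 96 (22.9%) at 50 Mb or more. Of the 60 neighbouring pairs, 29 had the same state in all 8 plants. The intervals that held the 59 switches had a median width of 39.4 Mb, so most switches were located only to a large part of a chromosome.

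The highest leaf count at a paternal insertion called absent was in plant 4 at chr10:83075947-83075955. Its leaf held 48 reads there (96.9 CPM, just under the limit of 100), and its endosperm held 0. The next highest leaf count among absent combinations was 4 reads. Plants 1, 2, 3, 5 and 6, which carried the insertion, had 4320 to 5946 CPM in leaf.

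The level of the paternal insertions differed between the tissues. Within each library, the median log2(CPM + 1) of the carried paternal insertions was compared with that of the insertions listed for both parents, a ratio that does not depend on the library total. In leaf this difference was lowest at -0.88, with a median of -0.86 and a highest value of -0.76. In endosperm it was lowest at -1.76 in plant 5, with a median of -1.55 and a highest value of -1.36. The tissues did not overlap. Expressed as a level, paternal insertions stood at 55.6% ± 1.65 (SD, n = 8) of the both-parent insertions in leaf and at 34.8% ± 3.14 in endosperm. The classes compared were unlike in width. Of the 70 paternal insertions 66 were 9 bp wide, while several both-parent insertions were far wider, such as chr1:272293892-272298698 (4807 bp) and chr2:142959280-142961386 (2107 bp). Whether width affects the ratio was not tested.

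The leaf minus endosperm difference was 0.68 ± 0.14 log2 (SD, n = 8), between 0.48 and 0.89, and leaf was higher in 8 of 8 plants (exact two-sided sign-flip permutation test over plants, p = 0.00781, the smallest that 8 plants allow, adjusted p = 0.0176, Benjamini-Hochberg over 9 tests). Without plant 7 it was 0.67 ± 0.14 (7 of 7 plants, exact p = 0.0156, adjusted p = 0.0352). With the leaf libraries sampled down to the endosperm totals it was 0.70 ± 0.10, so it was as large at equal depth. In the father's own endosperm library the 70 insertions stood at -0.57 log2, or 67.3%, of the both-parent insertions, above every leaf and endosperm library of the offspring.

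**Figure D2:**
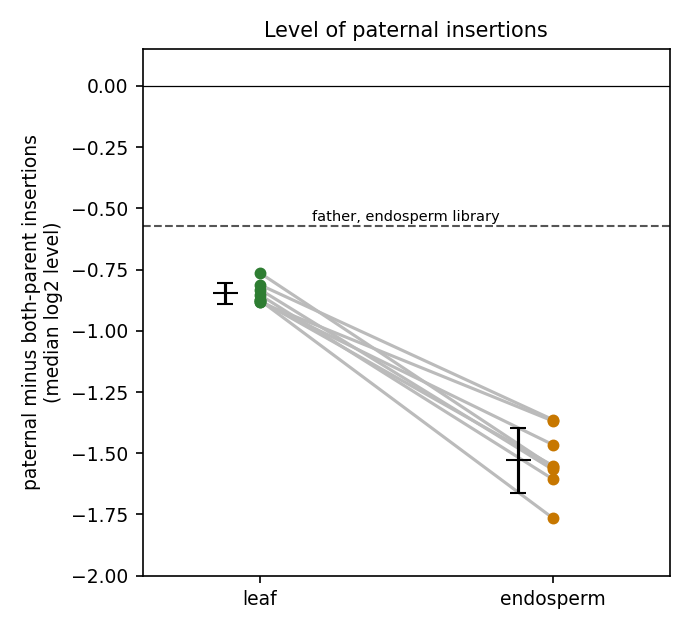
Median log2 level of carried paternal insertions minus that of insertions listed for both parents, in leaf and endosperm, with a line for each of the 8 plants and bars giving mean and SD. Leaf values lie between -0.88 and -0.76, endosperm values between -1.76 and -1.36, and the dashed line marks the father library at -0.57.

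The contrast between paternal and both-parent insertions was also seen site by site. edgeR's quasi-likelihood test with the plant as a block called 56 of 224 sites at an adjusted p under 0.05 (25% of the sites tested). Leaf was higher at 43 of them (19.2%) and lower at 13 (5.8%). Of the 70 segregating paternal insertions, 67 passed the filter on low counts, and leaf was higher at 25 and lower at 3. Of the 29 insertions of both parents, all of which passed, leaf was higher at 1 and lower at 8. The median log2 leaf minus endosperm value was 0.42 for the paternal and -0.23 for the both-parent insertions, against 0.67 over all 224 sites. The split moved with the scaling. With library totals in place of TMM factors, leaf was higher at 13 sites and lower at 29. Among the paternal insertions it was then higher at 8 and lower at 5, and among those of both parents higher at 0 and lower at 20. Without the plant block, 0 paternal insertions were called in either direction. With DESeq2, leaf was higher at 27 paternal insertions and lower at 0. The gap between the medians of the 2 classes, 0.65 in the reported fit, stayed between 0.53 and 0.72 over 13 settings. The filter used summed counts, which come mainly from the deeper leaf libraries, so nothing is read from the direction of the 118 sites in neither class nor the list of new insertions.

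The 5 sites with the lowest p among those higher in leaf were all paternal insertions. At chr5:10940014-10940022, 5 plants carried the insertion, with 7800 to 10419 CPM in leaf and 3781 to 6352 CPM in endosperm, and the groups did not overlap (log2 difference 1.20 ± 0.12 SE, adjusted p = 0.000369, edgeR). The others, chr1:247189133-247189141, chr9:132803333-132803341, chr6:37593494-37593502 and chr1:246411645-246411653, had log2 differences of 0.76 to 0.86. The 5 with the lowest p among those lower in leaf were all insertions of both parents. At chr1:104590546-104591797, a site 1252 bp wide, 8 plants had 5648 to 9591 CPM in leaf and 13561 to 23588 CPM in endosperm (log2 difference -0.78 ± 0.08 SE, adjusted p = 0.000357, edgeR). For chr9:24011345-24011353, chr3:175620033-175621592, chr2:142959280-142961386 and chr8:125105515-125105523 the log2 differences were -0.70 to -0.59.

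A carried paternal insertion had nearly the same leaf level in every plant that carried it. The log2 CPM at each insertion was centred on the median of its carriers and then, to remove differences between libraries, on the median over the carried insertions of the library. The centred level had an SD of 0.149 in leaf and 0.334 in endosperm over the 328 carried combinations. Only 3 of the 328 had a centred level under -0.7 in leaf, and they were picked out after the values were seen. The next lowest was at -0.58. Without the library centring, a setting added after the data were seen, the same 3 were under -0.7, and the next lowest was plant 4 at chr1:34300640-34300644, at -0.68.

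Plant 2 had 2399 CPM in leaf at chr4:164554546-164554554, where the other carriers had 6130 to 7134 CPM. Its endosperm was low there as well, with 2284 CPM against 4579 to 7502 CPM. Plant 5 had 2760 CPM in leaf at chr1:27124808-27124816, where the others had 6302 to 7177 CPM, and 2498 CPM in endosperm against 4612 to 6580 CPM, the latter from 18 reads. Relative to the median of all carriers, without the library centring, plant 2 stood at 37.1% in leaf and 40.3% in endosperm, and plant 5 at 43.0 and 42.3%. The third case differed. Plant 3 had 3878 CPM in leaf at chr4:246324458-246324466 against 5574 to 7321 CPM in the others, whereas its endosperm, with 4529 CPM, lay inside the range of 2575 to 6209 CPM. In endosperm 13 of the 328 combinations had a centred level under the same limit (19 without the library centring), 2 of them being the cases of plants 2 and 5.

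**Figure D3:**
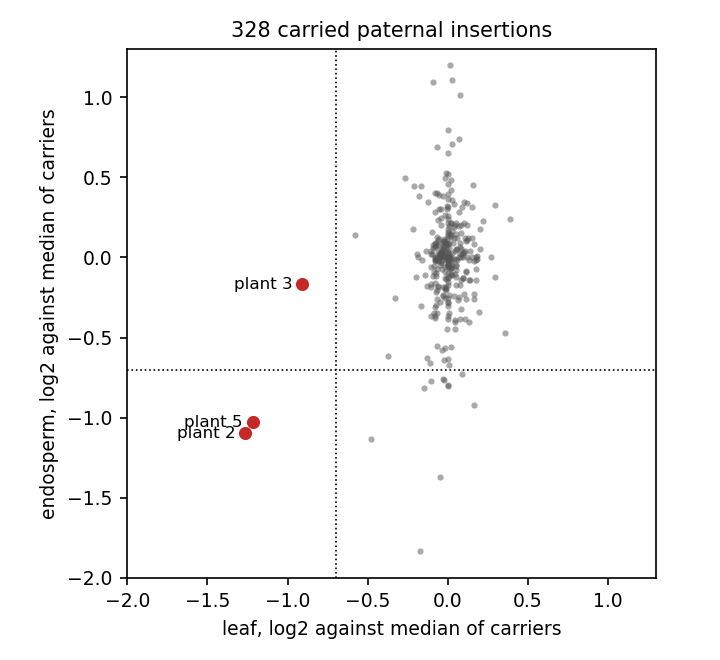
Each point is 1 of the 328 carried combinations of a paternal insertion and a plant, with its log2 level against the median of all carriers of that insertion, after library centring, in leaf (x axis) and in endosperm (y axis). Dotted lines mark -0.7, and the red points of plants 2, 3 and 5 lie left of it in leaf, those of plants 2 and 5 also below it in endosperm.

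The insertion set aside because every plant of the series carried it had a similar low value in plant 6. At chr9:11958559-11958567 the leaf of plant 6 had 1347 CPM and its endosperm 2113 CPM, while the other 7 plants had 3197 to 4150.0 CPM in leaf and 3821 to 8418 CPM in endosperm. Plant 6 also had a new insertion, chr9:11958694-11958702, beside it, with 173 reads in leaf and 59 in endosperm.

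New insertions were those listed for neither parent that fell below the presence limit in the father library. Present in both tissues were 32, 42, 38, 53, 21, 39, 39 and 35 new insertions in plants 1 to 8 (37.4 ± 9.05, SD, n = 8; 37.1 ± 9.75 without plant 7). Plant 4 had the most and plant 5, with the shallowest endosperm library, the fewest. These 299 calls were at 289 distinct sites, of which 281 were 9 bp wide and 253 had 0 reads in the father library. Of the 299 calls, 291 were also calls of the authors' deposited list, and these were all of the 291 calls that the list gives for new insertions of the family.

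Nearly all new insertions were private to a kernel. There were 283 distinct sites in 1 plant each and 6 in more than 1 plant. Plants 1 and 2 shared 4 insertions, on 4 chromosomes. At chr1:42163370-42163378 plant 1 had 2642 reads in leaf and 54 in endosperm, and plant 2 had 2818 and 122. At chr7:154614037-154614045 the counts were 2376 and 123 in plant 1 and 2889 and 217 in plant 2. The other 2 were chr9:141114115-141114123 and chr3:176238323-176238331. The father library held 0 reads at all 4, and the other 6 plants held at most 1 read in any library.

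At chr9:141114115-141114123 both flanking paternal insertions were absent in plants 1 and 2. At the other 3 sites shared by these plants, the flanking paternal insertions differed in state in 1 plant and were equal in the other. Both flanks were present at chr1:42163370-42163378 in plant 2 and at chr3:176238323-176238331 in plant 1. Both were absent at chr7:154614037-154614045 in plant 2. Plants 3 and 7 shared chr5:220497830-220497838, with 828 and 772 reads in leaf and 298 and 302 in endosperm, 34.6 and 33.1% of the paternal level in leaf and 70.6 and 71.9% in endosperm. The father library held 2 reads there.

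The sixth shared site was of another kind. It covered chr2:78235838-78240609, 4772 bp, was not in the authors' deposited list, met the limits in both tissues of 6 plants, had 32 reads in the father library and also had counts in other families. Its width alone does not set it apart, since the both-parent insertion chr1:272293892-272298698 covered 4807 bp. The shared wide site was kept among the 299 calls and in the levels and locations of new insertions given below. Among these calls, the only other sites outside the list were chr2:231422574-231422582 in plant 6 and chr9:11546811-11546819 in plant 7.

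New insertions in both tissues stood close to the paternal ones in level. Their median over the 299 calls was 91.4% of the library's median paternal level in leaf and 93.9% in endosperm. In leaf 202 calls were at 75% or more and 73 between 25 and 75%. The highest private new insertion by leaf CPM was chr4:29124587-29124595 in plant 7, with 4036 reads in leaf and 445 in endosperm (10849 and 5601 CPM, or 172.8 and 106.0% of the paternal level). The corresponding sites of the other 7 plants were at 131.5 to 168.1% in leaf and 47.6 to 118.1% in endosperm. They lay on chromosomes 1, 2, 3, 4, 5, 7 and 10.

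Plant by plant, the median of the new insertions was 0.14 ± 0.12 log2 (SD, n = 8) below that of the paternal insertions in leaf, lower in 7 of 8 plants (exact sign-flip p = 0.0234, adjusted p = 0.0422). Without plant 7 the adjusted p was 0.0844, above the threshold of 0.05. In endosperm the median was 0.10 ± 0.11 log2 lower, in 6 of 8 plants, and did not pass (exact p = 0.0391, adjusted p = 0.0502; without plant 7 adjusted p = 0.100).

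A group of new insertions stood well below the paternal level in both tissues. In leaf 24 calls were under 25% of the paternal level, 6 of them at the wide site on chromosome 2. The other 18 had 5.59 to 22.1% in leaf and 5.73 to 37.3% in endosperm. In endosperm not all of them were under 25%, but all 18 were under 50%. In plant 8, chr4:150871860-150871868 had 807 reads in leaf and 71 in endosperm, 22.1 and 22.6% of the paternal level. In plant 2, chr6:65072091-65072099 had 325 and 40 reads, 15.5 and 20.2%, and chr5:184683941-184683949 had 288 and 30 reads, 13.8 and 15.2%. In plant 4, chr2:24113499-24113507 had 278 and 46 reads, 10.6 and 10.9%. The father library held 0 reads at each of these 4 sites. These sites were singled out after their values were seen. Over all 299 calls the log2 levels in leaf and endosperm had a Pearson r of 0.82 and a Spearman rho of 0.59. This is across sites, which are not independent replicates and include the wide site.

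Some new insertions lay close together in the same plant. In plant 3, chr8:66081644-66081652 and chr8:66081648-66081656 were 4 bp apart, with 365 and 413 reads in leaf and 88 and 68 in endosperm, and both were among the low sites. In plant 7, chr4:189075501-189075509 and chr4:189075517-189075525 were 16 bp apart, with 2666 and 3078 reads in leaf and 358 and 428 in endosperm, at full level. In the same plant, chr1:163137775-163137783 and chr1:163145905-163145913 were 8130 bp apart and both low, with 204 and 160 reads in leaf. In all, 5 pairs within 10000 bp were found, all within plants 3, 6 and 7.

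New insertions in both tissues were found on all chromosomes, from 16 on chromosome 10 to 39 on chromosome 1. Of those whose flanking paternal insertions had equal state, 79 lay where both were present and 71 where both were absent. Per plant, 56.6% ± 19.3 (SD, n = 8) lay on segments that carried the father's insertions, and those segments made up 57.6% ± 15.6 of the length, a difference of -0.97 ± 9.62 percentage points (4 plants higher, 4 lower, exact sign-flip p = 0.766, adjusted p = 0.861). Without plant 7 it was 0.49 ± 9.38 points (exact p = 0.922). Of the 299 calls, 16 were within 1 Mb of a paternal insertion that the plant carried. The share of the genome within that distance was not computed, so this number is not read as near or far.

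**Figure D4:**
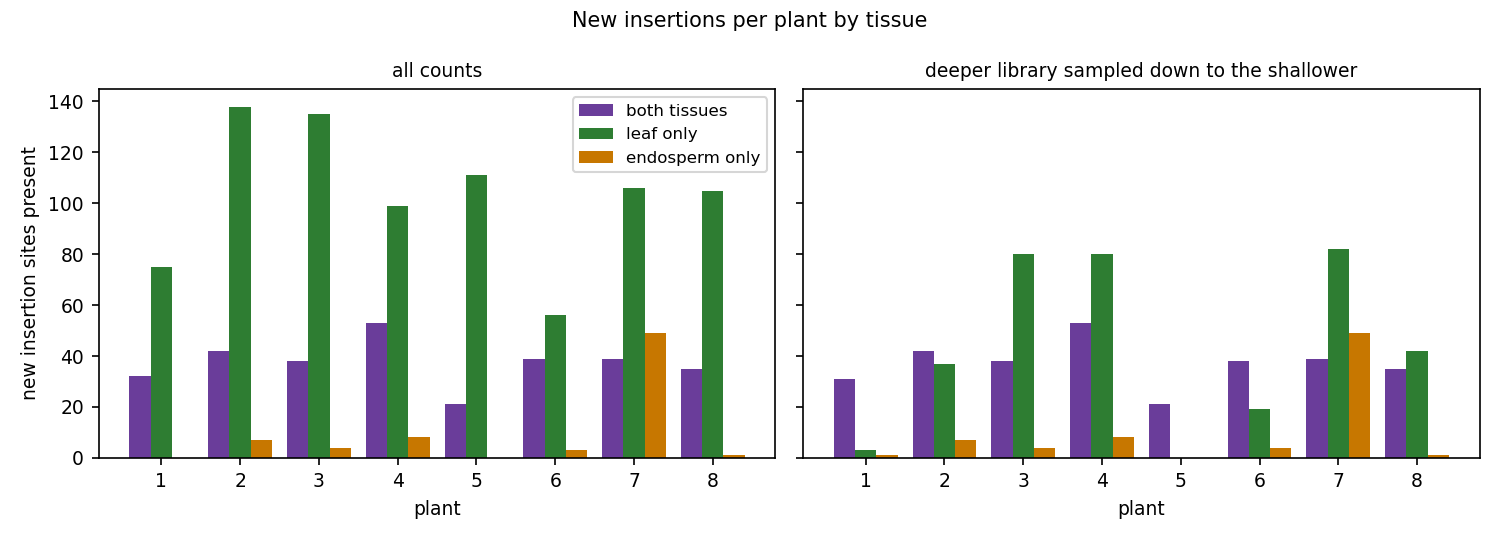
Bars give, for each plant, the new insertion sites of 3 classes (both tissues, leaf only, endosperm only), with all counts (left) and after thinning the deeper library to the total of the shallower (right). Leaf-only sites exceed endosperm-only sites in all 8 plants with all counts, but number 0 to 82 at equal depth, and plant 7 has 49 endosperm-only sites.

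Many more new sites were present in leaf only than in endosperm only, and nearly all were at low level. Leaf-only sites numbered 75, 138, 135, 99, 111, 56, 106 and 105 in plants 1 to 8, and endosperm-only sites 0, 7, 4, 8, 0, 3, 49 and 1. The leaf-only and endosperm-only numbers did not overlap. The difference was 94.1 ± 30.6 (SD, n = 8), leaf higher in 8 of 8 plants (exact sign-flip p = 0.00781, adjusted p = 0.0176), and 99.4 ± 28.8 without plant 7 (exact p = 0.0156, adjusted p = 0.0352). Depth moved with this result, since leaf libraries held 4.17 to 36.0 times the counts of the endosperm libraries.

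At equal depth the leaf-only numbers fell to 3, 37, 80, 80, 0, 19, 82 and 42, and the difference was 33.6 ± 28.8, leaf higher in 7 of 8 plants and equal in plant 5 (exact p = 0.0156; without plant 7, 33.7 ± 31.1, exact p = 0.0312). Plants 3, 4 and 7, whose endosperm libraries were the deepest, had the most, and plants 1 and 5, with the shallowest, had 3 and 0. Of the 343 leaf-only calls at equal depth, 315 were leaf-only with all counts too.

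The 825 leaf-only calls were at 815 distinct sites, and 6 sites occurred in more than 1 plant. Their median level was 2.40% of the paternal level, 20 were at 10% or more and 2 at 25% or more. Of the 825, 800 (97.0%) had 0 reads in the endosperm of the same kernel, and 409 (49.6%) had counts in no other library of the series. Together they held 2.03% ± 0.62 (SD, n = 8) of the leaf counts.

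The strongest leaf-only site of the family was chr4:162908792-162908800 in plant 2, with 920 reads (2316 CPM, 43.9% of the paternal level) and 0 reads in its endosperm, in its siblings, in the father and in other families. In plant 4, chr3:161553051-161553059 had 783 reads (29.8%), likewise with 0 reads in any other library. The strongest sites of the other plants had 19.6% of the paternal level in plant 8 (chr10:137181561-137181569), 19.3% in plant 1, 15.5% in plant 3 (chr8:119262602-119262610), 14.3% in plant 6 (chr10:125583000-125583008), 12.8% in plant 7 (chr1:33110239-33110247) and 9.97% in plant 5 (chr2:206664340-206664348). That of plant 1, chr4:246324384-246324392, lay 74 bp from a paternal insertion that the plant carried, and had 54 reads in siblings and 10 in the father.

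The endosperm-only calls were 72, or 23 without plant 7. Those 23 had a median level of 4.32% of the paternal level and a highest value of 13.6%, 20 had 0 reads in the leaf of the same kernel, and 8 had counts in no other library. The strongest was chr9:563700-563708 in plant 6, with 41 reads in endosperm and 0 in leaf. In plant 2 it was chr4:244213085-244213093 with 20 reads, in plant 3 chr3:171334248-171334256 with 20 (tied with chr3:201821685-201821693), in plant 4 chr10:62847296-62847304 with 35, and in plant 8 chr3:132819672-132819680 with 10, all with 0 reads in leaf. Plants 1 and 5 had none.

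Plant 7 stood apart from the other kernels in this class. Its 49 endosperm-only sites had a median of 25.2% of the paternal level, and 44 had 0 reads in leaf. Of the 49, 18 were listed for the father and the progeny of NE71, with a median of 26.5%, and 31 were not in the list, with a median of 22.4%. The strongest, chr5:12841007-12841015, had 164 reads in the endosperm of plant 7, 0 in its leaf, and 12308 in other families.

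Limiting both classes to sites at 10% or more of the paternal level gave 2, 6, 2, 6, 0, 1, 2 and 1 leaf-only sites and 0, 1, 0, 0, 0, 1, 37 and 0 endosperm-only sites. Without plant 7 leaf was higher by 2.29 ± 2.36 sites, in 5 of 7 plants with 2 equal, and the test did not pass (exact p = 0.0625). Over all 8 plants the difference was -2.38 ± 13.4 (exact p = 1), and plant 7 was the 1 plant in which endosperm was higher.

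Nearly all leaf-only sites were 9 bp wide, but so were all 72 endosperm-only calls, those of plant 7 included. The share over all deposited sites was not computed, so nothing about the origin of leaf-only sites is read from their width. Per plant, 99.7% ± 0.56 (SD, n = 8) of leaf-only sites were 9 bp wide, against 96.0% ± 3.64 of the new sites in both tissues, a difference of 3.67 points (exact p = 0.0312, adjusted p = 0.0469). Without plant 7 the adjusted p was 0.0938, and at equal depth the exact p was 0.25. Of the 289 distinct sites in both tissues, 8 were not 9 bp wide, the wide site on chromosome 2 among them.

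**Figure D5:**
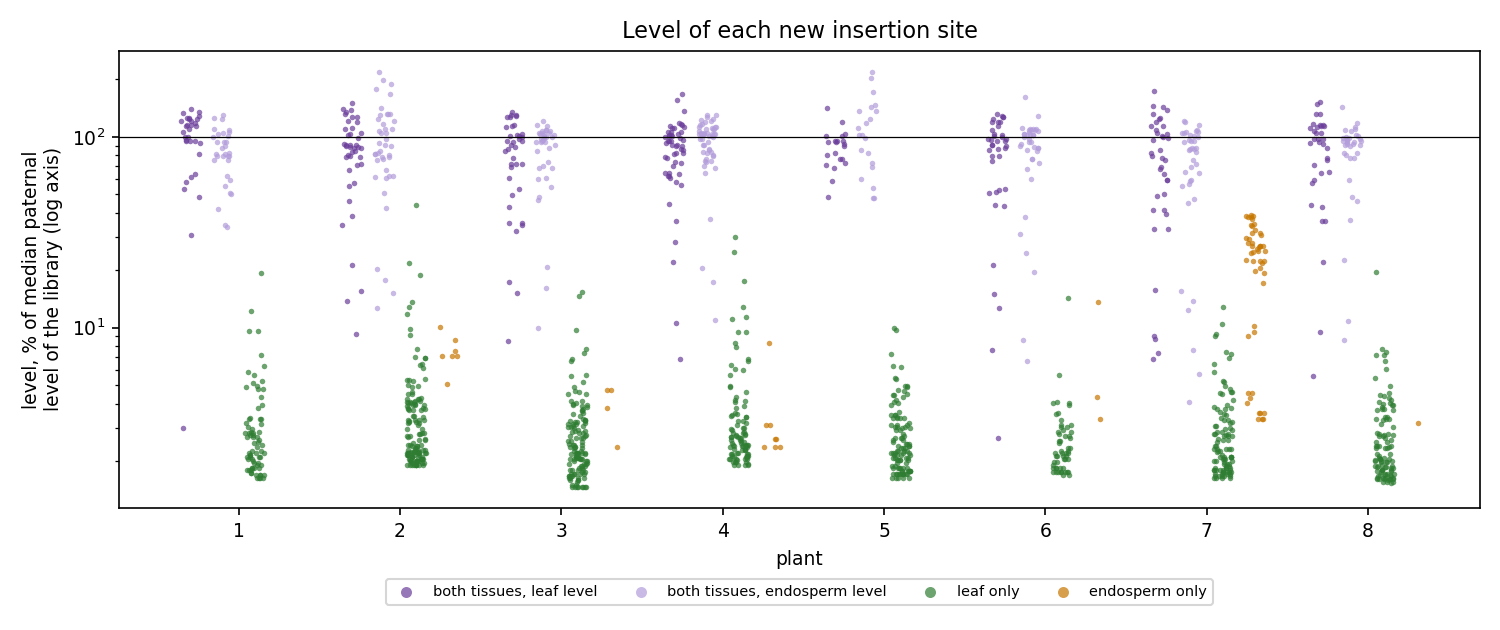
Each point is a new insertion site, with its level as a percentage of the median paternal level of the library on a log axis, by plant and by the tissues in which it was present. Sites in both tissues cluster near 100% with 24 calls under 25% in leaf, leaf-only sites cluster near 2.40%, and 37 of the 49 endosperm-only sites of plant 7 lie at 10% or more.

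Grouped by origin, insertions of both parents took 30.6% ± 3.20 of the leaf counts and 44.1% ± 4.02 of the endosperm counts (SD, n = 8). Segregating paternal insertions took 23.6% ± 4.16 and 21.6% ± 3.59, and new insertions in both tissues 19.3% ± 3.61 and 17.6% ± 4.22. Without plant 7 these shares were 30.5 and 44.0%, 24.2 and 22.3%, and 19.3 and 17.9%. Counts outside the authors' deposited list made up 26.1% ± 4.51 of leaf and 15.96% ± 2.56 of endosperm totals, 10.2 ± 3.02 points more in leaf and higher in 8 of 8 plants (exact sign-flip p = 0.00781, adjusted p = 0.0176). Without plant 7 it was 10.3 ± 3.25 points (exact p = 0.0156, adjusted p = 0.0352).

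NE74 was set against the 22 plants of the other 3 families, NE71, NE72 and NE73, on 4 leaf minus endosperm values. The paternal level difference was 0.68 ± 0.14 log2 in NE74 and 0.61 ± 0.24 in the others (exact permutation p = 0.419, adjusted p = 0.839 over 4 tests). Leaf-only minus endosperm-only sites were 94.1 ± 30.6 and 93.0 ± 42.8 (exact p = 0.947). The number of insertions present was 95 ± 31.5 higher in leaf in NE74 and 93.6 ± 43.5 in the others (exact p = 0.940), and the share of counts outside the list 10.2 ± 3.02 and 12.2 ± 4.44 points higher (exact p = 0.244). None of the 4 differences between NE74 and the other families exceeded the spread between plants. Without plant 7 the exact p was 0.513, 0.717, 0.706 and 0.300, in the order given.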

How the data were processed

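The members, classes and tests were chosen with earlier results of these data known. The deposited data are raw counts for 1091553 insertion sites in 64 libraries and the authors' list of 1058 transmitted insertions with calls coded 0 or 1 per plant and parent, per the file headers. Bowtie2 is named in the submitters' processing notes; its version, the counting program, the genome build, the filters and the kind of unit counted (reads or molecules) are not given in the sources used here. A read means 1 unit of the deposited count. Leaf and endosperm libraries were paired by the plant number in the titles, and 0 columns of per-sample values were unused. The 2 label texts differ on the seedling stage, which was not used.

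Levels were log2(CPM + 1). Per-plant differences were tested by exact two-sided sign-flip permutation with Benjamini-Hochberg adjustment over 9 tests, families by exact permutation of 30 plants. Sites with 10 or more counts, summed over both tissues, in 2 or more plants were tested with edgeR 4.0.16 (R 4.3.3; TMM, quasi-likelihood, plant as a block), tested on simulated data; DESeq2 1.42.0 was an alternative. Equal depth meant sampling the deeper library of a plant without replacement. Sign-flip p-values measure the spread between the 8 plants of this cross. Those of edgeR rest on variation modelled per site, at sites that as few as 2 plants carried. The family p-values treat 30 plants as exchangeable although siblings share a father, so they do not measure the spread between families. Sites named are the ends of the paternal sets, those beside switches, new sites in 2 or more plants, the strongest new, leaf-only and endosperm-only site of each plant, and the 5 lowest p per direction; others were chosen after their values were seen. No gene names are given, since the gene table at hand is of another assembly.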

Additional observations from a re-analysis of the deposited data

Results flagged for a closer look

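Of 19 per-plant measures screened for a plant far from the others, 1 met Dixon's criterion for 8 values: plant 7 had 49 endosperm-only new insertions, while the next highest plant had 8 and the lowest 0. Chance flags about 1 in 20 groups. Plant 7 had already been set apart because its endosperm library held insertions of NE71. The flag restates this and is not an independent finding. Of the 49 sites, 18 were listed for family NE71, and 44 had 0 reads in the leaf of plant 7.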

How the results depend on the processing

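The deposited table gives counts without a stated molecule count, and shallow endosperm libraries hide sites under 118 to 1388 CPM, so absence from endosperm is not shown for low sites. The paternal level difference kept its direction and its side of the threshold under all 12 alternatives (0.65 to 0.71 log2), as did the share of counts outside the list under all 10 (9.66 to 10.9 points). The 59 switches ranged from 58 to 60 over 5 alternatives, transmission from 56.5 to 61.4% over 12, and new insertions in both tissues from 32.1 to 40.0 per plant over 17. The tissues did not match in full at every setting. Leaf carried on average 0.125 more paternal insertions with 10 reads and no CPM minimum, at 5 reads and 50 CPM, and at 1000 CPM. With sites within 10 bp merged it carried 0.25 more. Alternatives with a p-value are judged here by direction and by the unadjusted p at 0.05, without the adjustment over 9 tests that the reported calls use. Numbers of sites called are judged by how far they moved from the reported numbers. Results without a test have no p-value to judge. On these terms 163 alternatives were counted as unchanged. Those that changed follow, and their cause was not tested except where a plant or a filter is left out by construction.

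At a presence minimum of 1000 CPM, leaf minus endosperm turned to -4.62 for insertions present and -4.88 for leaf-only minus endosperm-only sites, and to -0.14 and -0.43 with plant 7 also left out, a setting added after the data were seen. At 10% or more of the paternal level, also added then, leaf-only minus endosperm-only was -2.38, or 2.29 without plant 7. Leaving out each plant moved insertions present between 89.3 and 101.0. The location of new insertions, -0.97 points, was 0.98 without plant 1 and 0.49 without plant 7 (-2.83 to 0.98 over plants left out), and passed no test.

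The lower level of new insertions in leaf, -0.14 log2, was -0.11 and did not pass (exact p = 0.0625) with 0 reads required in the father. That in endosperm, -0.10, was not a call after adjustment, and its unadjusted p also rose above 0.05 with 0 reads in the father (-0.083), at 1000 CPM (-0.079) or with most single plants left out (-0.12 to -0.076). The 9 bp share difference, 3.67 points, did not pass with 10 reads and no CPM minimum (1.96), at 5 reads and 50 CPM (1.92), at 1000 CPM (4.24), with 0 reads in the father (2.26), without sites of other families (1.97), at equal depth (2.95) or with most plants left out (2.70 to 4.41).

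Sites called higher and lower in leaf, 43 and 13, were 13 and 29 with library totals, 4 and 7 with no replicate block, 14 and 0 with no count minimum, 33 and 7 with DESeq2, and 19 to 74 and 7 to 24 with a plant left out. The largest moves were 74 and 24 without plant 2, 72 and 9 without plant 7, and 19 and 7 without plant 4. The block follows the plant numbers, which the genotypes bear out. Against the other families, insertions present and leaf-only minus endosperm-only sites turned to -14.2 and -14.3 without NE73, and the share outside the list was -4.12 points (exact p = 0.0164, not adjusted) without NE71.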
